A study of Homo sapiens with 12 samples.

Results

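The subject is 9 mRNAs that encode LSM proteins of mRNA decay and pre-mRNA splicing: LSM1, LSM2, LSM3, LSM4, LSM5, LSM6, LSM7, LSM14A and LSM14B. They were taken by gene symbol from the 23615 symbols of the expression tables, and all 9 were found in both tables. No measured value entered that rule, but the members were chosen with earlier results of these data known. HEK293T, an established line from human embryonic kidney that expresses SV40 large T antigen, was kept for 18 h in 2 μM CP25 or in an equal volume of vehicle, a peptide storage buffer. Per the labels CP25 is a macrocycle that inhibits Dcp2, the enzyme that removes the cap of an mRNA. Transcription was then blocked with actinomycin D at 5 μg/mL, and poly(A) RNA was sequenced at 0 h and at 2 h of the block. Each treatment was thus sampled at both times, which gave 4 groups of 3 libraries, with no 2 h group free of actinomycin D among the samples used here. The labels number the replicates without saying whether they were separate cultures, so a p-value covers only the spread among these libraries, and that spread may be technical.

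LSM proteins carry the Sm fold and close into rings that hold RNA. A cytoplasmic ring made of LSM1 to LSM7 binds the shortened 3′ end of an mRNA and, with PATL1, promotes removal of the cap by Dcp2. A nuclear ring in which LSM8 takes the place of LSM1 binds the 3′ end of U6 small nuclear RNA, a catalytic part of the spliceosome. LSM14A and LSM14B carry an Lsm domain but are not ring subunits; they bind DDX6 and EIF4ENIF1 in P-bodies and repress translation.

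The start sites of the members are shown first, because the first transcribed base and the bases after it set whether an mRNA belongs to the class with a terminal oligopyrimidine start (a C and then a run of C or T), a class best known from ribosomal protein mRNAs. The RefSeq promoter table of build GRCh38.p14 had 7 entries for 6 of the members, with 2 start sites for LSM5; LSM1, LSM6 and LSM14A are not shown. Each line gives 20 bases upstream of the start in lower case and the first 10 transcribed bases, in exon 1, in capitals, 5′ to 3′ on the strand of the gene.
LSM2, chr6:31806957-31806986, minus strand: gcccctttcccggcttcctcCTCCCCTCTA
LSM3, chr3:14178797-14178826, plus strand: ttccggagattgacgttgctCTTGTGTTCT
LSM4, chr19:18323067-18323096, minus strand: gcgcggcgacgaccgccgggAGCGTGTGCA
LSM5 downstream start, chr7:32490371-32490400, minus strand: accatcaatgaaggcaggccACTTCCGGCG
LSM5 upstream start, chr7:32495274-32495303, minus strand: ggagcggcggggtggggcttACGTGACCCG
LSM7, chr19:2328577-2328606, minus strand: cgcggggcggtgcctgcgaaGAGCCACACG
LSM14B, chr20:62122455-62122484, plus strand: cgcgctcctctcagagccccAGTCGCGCGC
LSM2 was the only one of the 7 entries with a C at the start followed by 4 pyrimidines. That start was present in 4.07% of all 35116 promoters and in 58.2% of the 79 promoters of ribosomal protein genes. LSM3 also began with C, but a purine stood within its first 5 bases.

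Motifs were searched in the window from 250 bases before to 50 bases after the start, on both strands. Of those searched, only the GC box, given below, was found for all 6 members with an entry. The ETS core CCGGAA, whose reverse complement is TTCCGG, was found for LSM3 and for both LSM5 starts, in 3 of 7 entries against 17.2% of all promoters. LSM3, the most abundant member, carried it in the 2 places below; capitals mark the motif.
LSM3, chr3:14178761-14178790, plus strand: gtttctctctatTTCCGGtgtattgtatcc
LSM3, chr3:14178785-14178814, plus strand: gtatcctcacgtTTCCGGagattgacgttg
The palindrome-like NRF1 core GCATGCGC was found for LSM7 alone, against 3.05% of all promoters, with 3 matches upstream of its start on either strand, of which the furthest from the start is marked in capitals below.
LSM7, chr19:2328626-2328655, minus strand: accccgggccacGCATGCGCcgcgcatgcg
The GC box GGGCGG occurred in 6 of 7 entries (45.0% of all promoters), CCAAT in 3 of 7 (34.6%) and TATAAA in 0 of 7 (11.5%). These are letter matches only. Over all tested genes with an entry, the level left at 2 h had medians of 88.2% in vehicle and 89.6% in CP25 with CCGGAA (n = 3234) and 86.1% and 86.9% without it (n = 5699).

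All 9 mRNAs were well above the limit of 1 FPKM used for testing (FPKM: fragments divided by transcript length and by the size of the library, so a level per length and a share). In vehicle at 0 h, mean FPKM ran from 16.5 ± 1.14 for LSM14B to 175 ± 10.2 for LSM3 (SD, n = 3). The order from high to low was LSM3, LSM7, LSM4, LSM14A, LSM2, LSM1, LSM6, LSM5 and LSM14B. For 6 of the 8 neighbouring pairs in that order the 3 libraries of one gene lay wholly above those of the next; LSM7 overlapped LSM4, and LSM14A overlapped LSM2. LSM3 stood 1.77 times as high as the next member in vehicle at 0 h, 1.62 times in CP25 at 0 h, 2.44 times in vehicle at 2 h and 2.32 times in CP25 at 2 h. LSM3, LSM7 and LSM4 led in that order, and LSM5 and LSM14B closed it, in all 4 groups, while LSM1, LSM2, LSM6 and LSM14A changed places between them. The order between genes rests on the transcript lengths that the authors used, which the sources used here do not give.

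**Figure D1:**
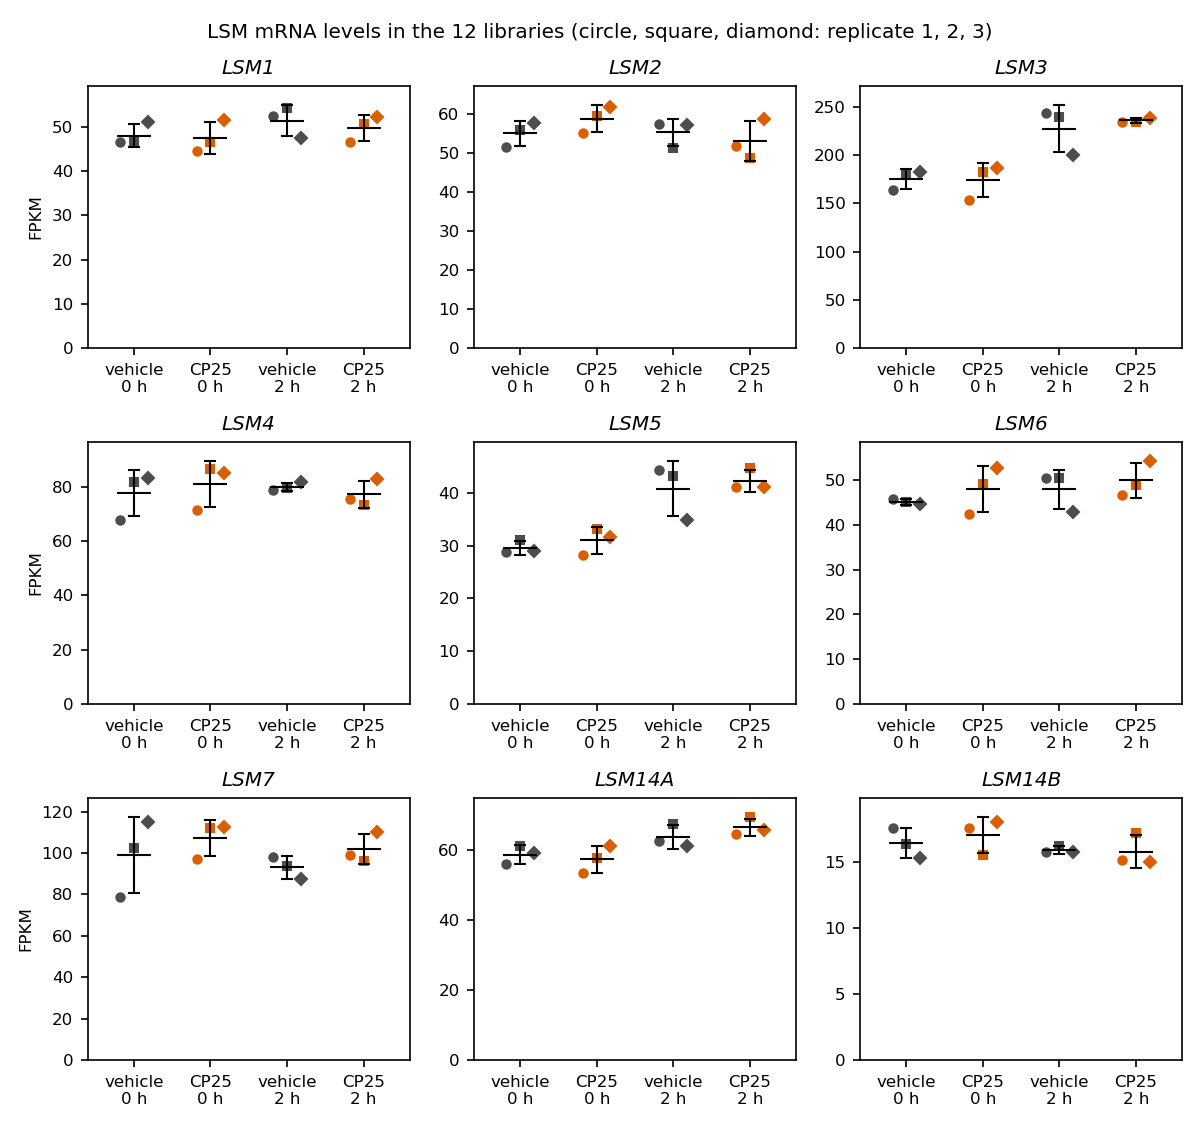
FPKM of each of the 9 LSM mRNAs (y axis, linear from 0) in the 12 libraries, by group (x axis), with grey symbols for vehicle and orange for CP25; circles, squares and diamonds are replicates 1, 2 and 3, and the bar and whiskers are the mean and SD of 3 libraries. LSM3 and LSM5 sit higher at 2 h than at 0 h in every library of both treatments, and vehicle and CP25 libraries overlap for each gene at each time.

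LSM1 is the subunit that sets the cytoplasmic decay ring apart from the nuclear ring. Its FPKM was 46.5, 46.5 and 51.0 in vehicle at 0 h and 44.4, 46.6 and 51.5 in CP25 at 0 h (replicates 1, 2 and 3 here and below). At 2 h it was 52.4, 54.2 and 47.4 in vehicle and 46.5, 50.5 and 52.1 in CP25. In FPKM as deposited the 4 groups overlapped one another throughout. As a share of the mean FPKM of LSM2 to LSM7 in the same library, LSM1 came to 60.0 ± 3.90% in vehicle and 57.1 ± 3.21% in CP25 at 0 h, and to 56.6 ± 1.66% and 53.3 ± 2.35% at 2 h (SD, n = 3). LSM8, its counterpart in the nuclear ring, was taken as the row named NAA38: this is an older symbol of LSM8 in RefSeq but also the current symbol of another gene, and the tables list that gene separately under its own older symbol, LSMD1. The tables do not settle which gene the row holds, so values for LSM8 rest on this reading. The NAA38 row read 5.75, 5.43 and 4.94 FPKM in vehicle at 0 h, so LSM1 mRNA was 9.0 ± 1.19 times as high there, and 8.67 ± 0.955 times in CP25 at 2 h, where the ratio was lowest.

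LSM2, LSM3, LSM4, LSM5, LSM6 and LSM7 belong to both rings. LSM3 was the most abundant, at 164, 180 and 183 FPKM in vehicle and 154, 183 and 186 in CP25 at 0 h. At 2 h it was 243, 239 and 199.6 FPKM in vehicle and 235, 235 and 239 in CP25. Every 2 h library of LSM3 exceeded every 0 h library of the same treatment, and replicate 3 of vehicle at 2 h was the lowest of the 6. LSM5, the least abundant of the ring, showed the same arrangement from a much lower level. Its FPKM was 28.7, 31.0 and 28.9 in vehicle and 28.2, 33.2 and 31.6 in CP25 at 0 h. At 2 h it was 44.3, 43.2 and 34.8 in vehicle and 41.1, 44.6 and 41.0 in CP25. The times did not overlap in either treatment, and the same replicate 3 of vehicle at 2 h was lowest again.

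For the other subunits shared by both rings, the 2 times overlapped in FPKM as deposited, but not once libraries were divided by their median, except LSM7 in vehicle. LSM6 read 45.8, 45.1 and 44.5 FPKM in vehicle and 42.3, 49.0 and 52.6 in CP25 at 0 h, then 50.4, 50.5 and 42.9 in vehicle and 46.6, 49.0 and 54.1 in CP25 at 2 h. LSM6 was thus tightly grouped in vehicle at 0 h and spread in the other groups. LSM2 read 51.5, 55.9 and 57.7 FPKM in vehicle and 55.2, 59.3 and 61.9 in CP25 at 0 h, then 57.3, 51.2 and 57.2 in vehicle and 51.9, 48.7 and 58.6 in CP25 at 2 h. With CP25 it was higher than vehicle in all 3 equal-numbered pairs at 0 h and in 1 of 3 at 2 h, although the groups overlapped at both times. LSM4 gave the same counts of pairs. The labels do not pair the libraries, and such counts were not made over all genes. Its FPKM was 67.8, 81.8 and 83.2 in vehicle and 71.4, 86.5 and 85.1 in CP25 at 0 h, then 78.8, 79.5 and 81.7 in vehicle and 75.5, 73.3 and 82.7 in CP25 at 2 h. LSM7 spread widely in vehicle at 0 h: its FPKM was 79.0, 103 and 115 FPKM in vehicle and 97.3, 112 and 113 in CP25 at 0 h, then 98.3, 93.8 and 87.2 in vehicle and 99.3, 96.2 and 110.3 in CP25 at 2 h.

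In some libraries most members lay on the same side of their group mean. In replicate 1 of vehicle at 0 h, 7 of the 9 members lay below their group mean, by up to 0.30 on the log2 scale (LSM7), and in replicate 1 of CP25 at 0 h 8 of 9 did. In replicate 3 of vehicle at 2 h 7 of 9 lay below, and in replicate 1 of CP25 at 2 h all 9. In replicate 3 of CP25 at 0 h 0 of 9 lay below. In the remaining libraries 2 to 5 of 9 lay below. These counts were not made over all genes, so they do not show whether the offsets were particular to the members. Replicate 1 of vehicle at 0 h had the lowest estimated depth, 13.1 × 10⁶ fragments. Replicate 1 of CP25 at 2 h had 28.15 × 10⁶, the highest of its group. The part of depth in these offsets was not tested.

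LSM14A and LSM14B are paralogous P-body proteins. LSM14A mRNA was 55.9, 61.1 and 59.1 FPKM in vehicle and 53.4, 57.8 and 61.2 in CP25 at 0 h. At 2 h it was 62.7, 67.6 and 61.07 in vehicle, where it overlapped 0 h by 1 library (61.12 FPKM at 0 h), and 64.7, 69.4 and 65.7 in CP25, wholly above 0 h. LSM14B was 17.6, 16.4 and 15.3 FPKM in vehicle and 17.6, 15.6 and 18.1 in CP25 at 0 h, then 15.8, 16.3 and 15.8 in vehicle and 15.2, 17.3 and 15.1 in CP25 at 2 h. In FPKM as deposited the groups of LSM14B overlapped at every comparison. The ratio of LSM14A to LSM14B was 3.59 ± 0.362 in vehicle and 3.38 ± 0.341 in CP25 at 0 h, and 4.0 ± 0.144 and 4.22 ± 0.178 at 2 h (SD, n = 3). No library of the 2 h groups had a ratio below 3.87, and no library of the 0 h groups had one above 3.86.

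The first comparison asks what was left of each mRNA after 2 h without transcription. The LSM mRNAs kept more of their 0 h level than the median transcript: as a percentage of the 0 h mean FPKM, their median was 106% in vehicle and 104% in CP25, beside 86.5% and 87.8% over all 12183 tested genes. In vehicle the highest were LSM5 at 138% and LSM3 at 130%, followed by LSM14A (109%), LSM1 (107%), LSM6 (106%), LSM4 (103%), LSM2 (100.4%), LSM14B (96.8%) and LSM7 (94.2%). In CP25 they were LSM5 at 136%, LSM3 at 135%, LSM14A at 116%, LSM1 at 105%, LSM6 at 104%, LSM4 at 95.2%, LSM7 at 94.9%, LSM14B at 92.6% and LSM2 at 90.2%. None of the 9 was under 75% in either treatment, a range that held 35.2% of tested genes in vehicle and 33.9% in CP25. The 0 h and 2 h values come from separate deposited tables, so these percentages are given without a test.

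Counted by library, 2 of 9 members in vehicle (LSM3 and LSM5) were higher at 2 h with no overlap, as were 15% of all tested genes. In CP25 these 2 and LSM14A did, 3 of 9 members, beside 15.5% of tested genes. In the other direction, 0 of 9 members were lower at 2 h with no overlap, where 46% of tested genes were in vehicle and 44% in CP25. FPKM is a share of the library, so a percentage above 100 is a level relative to the other poly(A) RNA and not a gain of molecules. The median FPKM at 2 h was 77.2% of that at 0 h in vehicle and 78.2% in CP25. Dividing each library by its median put every member above 100%, from 122% (LSM7) to 179% (LSM5) in vehicle and from 115% (LSM2) to 174% (LSM5) in CP25, so that the direction for LSM7 and LSM14B in both treatments, and for LSM2 and LSM4 in CP25, turned with the scaling. The median over all genes was then 112% in both treatments. With that scaling 8 of 9 members in vehicle (all but LSM7) were higher at 2 h with no overlap, beside 43% of tested genes, and 9 of 9 in CP25, beside 42%. Again 0 of 9 were lower, beside 22.2% of tested genes in vehicle and 22.6% in CP25.

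A rank among genes of the same treatment does not move with a factor shared by all libraries of a table. By percent left, LSM5 lay at the 97.3rd percentile of tested genes in vehicle and the 96.8th in CP25, and LSM3 at the 94.2nd and the 96.5th. LSM14A was at 77.7 and 84.0, LSM1 at 76.1 and 71.9, and LSM6 at 75.3 and 71.0. Between the treatments LSM4 (71.4 and 59.5) and LSM2 (68.5 and 52.9) differed most in rank. LSM14B stood at 63.7 and 56.0 and LSM7 at 60.4 and 59.0. All 9 thus ranked above the 50th percentile in both treatments.

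**Figure D2:**
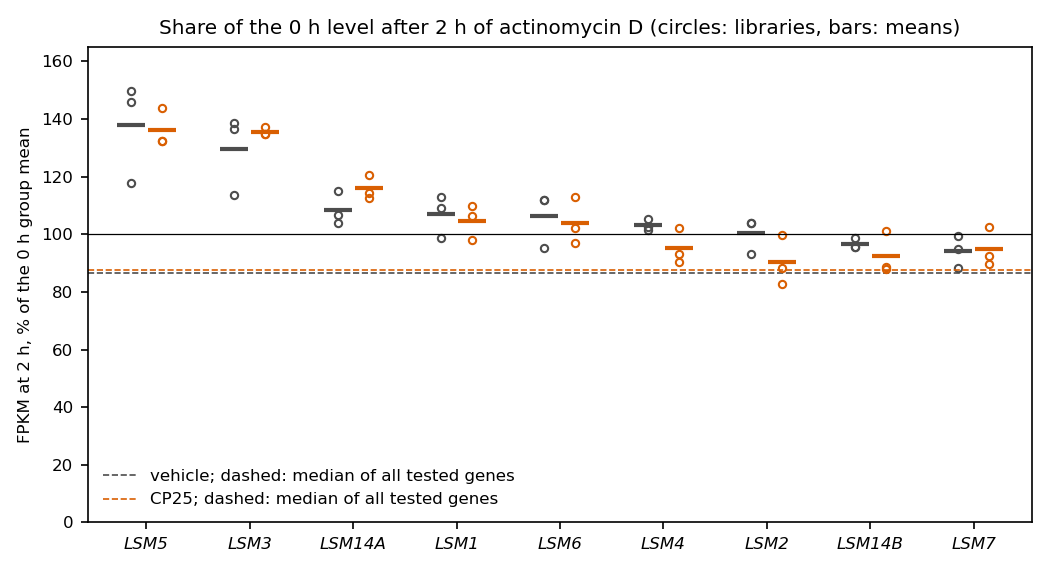
FPKM of each LSM mRNA in the 2 h libraries as a percentage of the 0 h mean of the same treatment (y axis), with circles for the 3 libraries and bars for the mean, in grey for vehicle and orange for CP25; the dashed lines mark the medians of all tested genes, 86.5% and 87.8%. The genes are ordered by their vehicle mean, from LSM5 at 138% to LSM7 at 94.2%, and every mean lies above the dashed line of its treatment.

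The next comparison asks whether CP25 altered the level of these mRNAs before the block. It gave no call for any of them: 0 of 9 members passed at an adjusted p of 0.05, and the same held for all 12365 genes tested (0%; limma on log2(FPKM + 1), Benjamini-Hochberg adjustment). At an unadjusted p under 0.05 there were also 0 of 9, beside 0.712% of genes. The largest estimates were 0.13 for LSM7 (95% interval -0.20 to 0.46), 0.09 for LSM2 (-0.07 to 0.26) and 0.08 for LSM6 (-0.12 to 0.28), as log2 differences of CP25 minus vehicle. Leaving out 1 library moved LSM2 from 0.05 (without vehicle replicate 1) to 0.14 (without CP25 replicate 1) and LSM6 from 0.01 (without CP25 replicate 3) to 0.17 (without CP25 replicate 1), the last with an unadjusted p of 0.0336 and an adjusted p of 0.938 by limma. LSM1 was at -0.02 (-0.19 to 0.16), LSM3 at -0.01 (-0.24 to 0.21) and LSM14A at -0.03 (-0.20 to 0.13). LSM4 (0.06), LSM5 (0.06) and LSM14B (0.05) also had intervals on both sides of 0. In the authors' deposited table the smallest p-value of a member at 0 h was 0.316, for LSM7.

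After 2 h of the block, CP25 again gave no call among the LSM mRNAs. The limma adjusted p was 1 for each member, and 0 of 9 passed while 1 of 11745 genes did (0.00851%). At an unadjusted p under 0.05 there were 0 of 9 members, beside 0.741% of genes. LSM7 had the largest estimate, 0.13 (95% interval -0.05 to 0.31), and was higher with CP25 in all 3 equal-numbered pairs, as was LSM14A at 0.06 (-0.09 to 0.22). LSM3 (0.06), LSM5 (0.06) and LSM6 (0.06) were on the same side, and LSM1 (-0.04), LSM2 (-0.06), LSM4 (-0.05) and LSM14B (-0.01) on the other. Members other than LSM7 and LSM14A were higher with CP25 in 1 or 2 of the 3 pairs. The labels do not pair the libraries, and the count of pairs was not made over all genes. The widest interval at this time was that of LSM5, -0.18 to 0.29, and the vehicle and CP25 libraries overlapped for all 9. In the authors' deposited table the smallest p-value of a member at 2 h was 0.303, again for LSM7.

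The third question is whether the inhibitor altered what was left of an LSM mRNA, which is the difference between its 2 h and 0 h effects. That difference compares a ratio within one table with a ratio within the other, so a scale factor per table drops out. No member passed (0 of 9, beside 0% of 12183 genes; limma adjusted p = 0.9998 for each), and at an unadjusted p under 0.05 there were 0 of 9 beside 1.26% of genes. The estimates furthest from 0 were -0.15 for LSM2 (95% interval -0.41 to 0.10), -0.11 for LSM4 (-0.40 to 0.18) and 0.10 for LSM14A (-0.12 to 0.31). LSM3 stood at 0.07 (-0.22 to 0.37) and LSM14B at -0.06 (-0.30 to 0.17). LSM1 (-0.03, -0.27 to 0.21), LSM5 (-0.01, -0.29 to 0.28), LSM6 (-0.02, -0.30 to 0.26) and LSM7 (-0.003, -0.38 to 0.37) were nearest to 0. The interval of LSM1, the subunit specific to the decay ring, leaves room for a difference of up to 0.27 lower or 0.21 higher on the log2 scale.

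**Figure D3:**
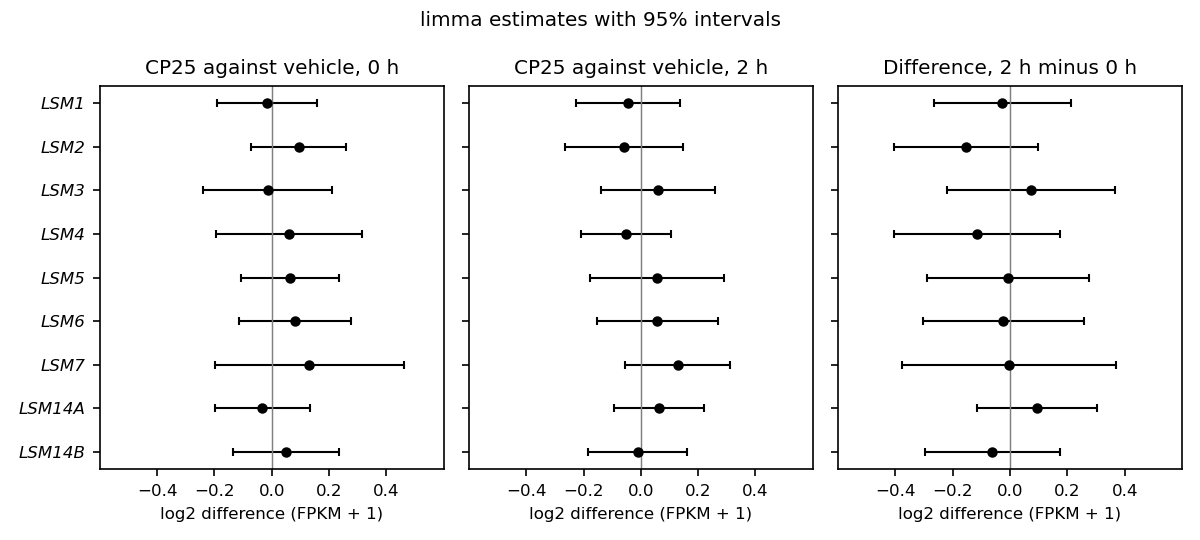
Log2 difference of FPKM + 1 (x axes) for the 9 LSM mRNAs (rows): CP25 minus vehicle at 0 h, at 2 h, and the 2 h effect minus the 0 h effect; points are limma estimates and whiskers their 95% intervals from 3 libraries per group. Every interval of these fits, which had no replicate block, crosses 0, and the widest at 0 h is that of LSM7, from -0.20 to 0.46. With replicate number as a block, not drawn, LSM2 at 0 h (0.02 to 0.17) did not cross 0. Nor did LSM2 (-0.28 to -0.03) and LSM4 (-0.23 to -0.003) for the difference, and none passed the adjusted threshold. With that block, 323 genes higher and 534 lower of 12365 had a limma unadjusted p under 0.05 at 0 h. For the difference they were 768 and 516 of 12183.

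The remaining genes of the Lsm family and of the rings' partners were taken from lists of known members. Of the other 6 Lsm-fold genes, 0 passed limma's adjusted threshold in any of the 3 comparisons, and their median left at 2 h was 87.3% in vehicle and 81.2% in CP25. LSM12 was highest, at 108% and 111%. LSM11, a subunit of the U7 particle that processes histone mRNA, was lowest at 55.8% and 53.2%, and LSM10, the other LSM protein of that particle, was at 79.2% and 71.6%. The row that stands for LSM8 was at 106% and 108%, close to LSM1. EDC3, an enhancer of decapping with an N-terminal Lsm domain, was at 87.7% and 84.8%.

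The Sm core, the ring of the other spliceosomal small nuclear RNAs, stood higher than the LSM members. Of its 8 genes 7 were tested, SNRPN being near 0, and 0 passed limma's adjusted threshold for CP25. Their median left was 127% in both treatments, and 6 of 7 were above 100% in each, as were 31.9% of all tested genes in vehicle and 34.2% in CP25. SNRPE was highest in vehicle (147%) and SNRPF in CP25 (136%), while SNRPB was lowest in both (91.2% and 82.9%). The 14 tested partners of U6 and the tri-snRNP had medians of 94.4% and 94.6%, with 4 of 14 above 100% in each treatment and 0 past the adjusted threshold for CP25. TXNL4A was highest in vehicle (123%) and PPIH in CP25 (123%), both of them tri-snRNP proteins. TUT1, the enzyme that adds uridines to the 3′ end of U6 RNA, was lowest in both (51.7% and 47.2%).

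The partners of LSM1 to LSM7 and LSM14A in decay had a lower median than the LSM mRNAs. Their 9 genes had medians of 80.6% in vehicle and 84.0% in CP25, and 4 of 9 were under 75% in both, beside 35.2% and 33.9% of all tested genes. DCP1B, a cofactor of Dcp2, was lowest at 41.6% and 46.5%, and its paralogue DCP1A was at 48.3% and 52.3%. EIF4ENIF1, the P-body protein that binds LSM14A, was at 54.0% and 55.5%, and EDC4, a scaffold of the decapping complex, at 66.3% and 64.8%. CNOT1, the scaffold of the CCR4-NOT deadenylase, was highest at 99.3% and 107%. DCP2, the mRNA of the inhibited enzyme, was at 97.6% and 99.1%, and XRN1, the exonuclease that degrades decapped mRNA, at 80.6% and 97.5%. XRN1 had a difference of CP25 effects of 0.24 (95% interval 0.008 to 0.48, limma unadjusted p = 0.0435, adjusted p = 0.9998). Over all tested genes, 1.26% had an unadjusted p under 0.05 for that difference. The CP25 libraries of XRN1 lay above those of vehicle at 2 h, and those of DCP2 lay below vehicle at 0 h. Such separation was not limited to decay genes. In the U6 and tri-snRNP list, NHP2L1 lay below vehicle at 2 h (68.4, 70.6 and 71.0 FPKM against 72.3, 73.8 and 74.7). The share of all genes separated in this way was not counted. None of the 9 decay partners passed limma's adjusted threshold for CP25 in any comparison. These medians describe the lists beside all tested genes, and no list was tested against another.

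**Figure D4:**
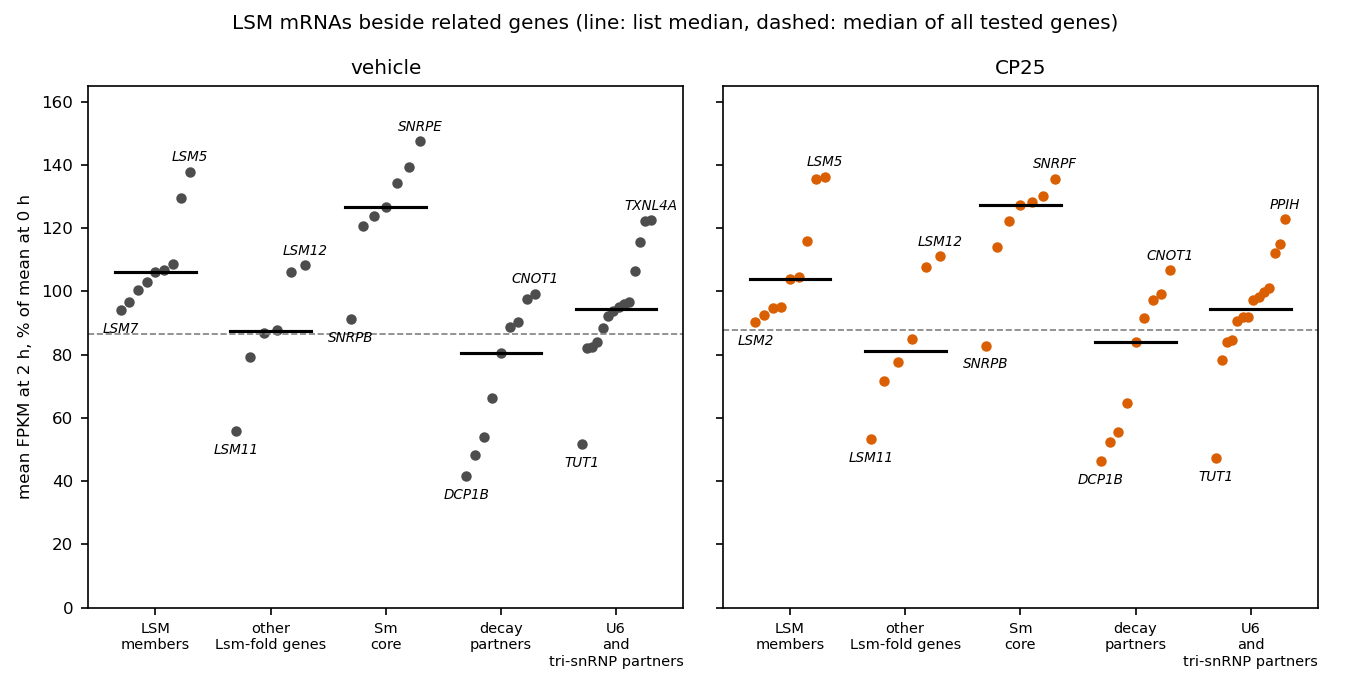
Mean FPKM at 2 h as a percentage of the mean at 0 h (y axis) for each tested gene of 5 lists (x axis), in vehicle (left, grey) and CP25 (right, orange); bars are list medians, the dashed line is the median of all tested genes, and the highest and lowest gene of each list are named. LSM members span 94.2% to 138% in vehicle and 90.2% to 136% in CP25. Decay partners run from DCP1B at 41.6% and 46.5% to CNOT1 at 99.3% and 107%, so these lists overlap.

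What the members share in structure was read from the principal transcripts of GENCODE 29, an annotation of another build than that of the FPKM tables. LSM1 to LSM7 have coding lengths of 240 (LSM6) to 417 bases (LSM4), and LSM14A and LSM14B have 1389 and 1155, where the median of 10844 tested genes is 1407. Tested genes with a coding length of at most 417 bases had a median left of 108% in vehicle and 104% in CP25 (n = 541), beside 86.5% and 87.8% over all tested genes. The 3′ UTR ranged from 166 bases in LSM7 to 3006 in LSM3. The pentamer ATTTA, the core of AU-rich elements, occurred 6 times in the 3′ UTR of LSM5, 4 times in LSM3 and LSM6, 3 times in LSM14A, once in LSM1 and LSM2, and not in LSM4, LSM7 and LSM14B. The 4 members with 3 or more copies ranged from 104% to 138% over both treatments, the 2 with 1 copy from 90.2% to 107%, and the 3 members without a copy from 92.6% to 103%, so members with and without a copy overlapped. Over all tested genes, medians with at least 1 copy were 87.2% and 89.4% (n = 7715) and without a copy 86.0% and 84.3% (n = 3129). GC content of the transcript ran from 36.0% in LSM5 to 59.5% in LSM7, the members highest and lowest in vehicle by percent left. The members between them did not keep to that order. LSM4, also at 59.5%, kept 103% in vehicle, and LSM3 at 46.8% kept 130%, beside 106% for LSM6 at 40.4%. A link of GC content with percent left was not tested. Genes whose RefSeq start carried the terminal oligopyrimidine letters, as LSM2 does, had medians of 93.2% and 93.1% (n = 687), and those without 86.3% and 87.4% (n = 8246).

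For 3 members, reads of another gene could enter the value, because exons overlap on the opposite strand and no source used here says whether the counting used strand. LSM1 overlaps BAG4 (20.6 FPKM in vehicle at 0 h, 56.2% left in vehicle), LSM3 overlaps XPC (15.9 FPKM, 93.9% left) and LSM7 overlaps SPPL2B (5.01 FPKM, 66.7% left). All 3 neighbours had lower FPKM than the member, and each kept less of its level at 2 h in vehicle than the member did. Pseudogenes named after LSM1 (2), LSM3 (4) and LSM6 (1) are annotated, and reads shared with them cannot be told apart here.

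Across the 12 libraries, log2 levels centred on the library median correlated between all pairs of members, most closely for LSM3 and LSM5 (Pearson r = 0.99) and least for LSM7 and LSM14B (r = 0.41). These correlations hold the step between the 0 h and 2 h tables and the shared libraries, and are given as descriptions without a p. Outside the family, the tested genes most like LSM1 by this measure were DRG1, UFD1L and MED6 (r = 0.98 each). Those most like LSM14A were SMARCE1 (r = 0.997), PNPT1 and BOD1 (r = 0.996 each), and those most like LSM14B were LINC00470 and MAPK8 (r = 0.97) and FTSJD2 (r = 0.96).

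Libraries of the 0 h table held an estimated 13.1 to 22.0 × 10⁶ fragments, and those of the 2 h table held 21.8 to 29.1 × 10⁶. With GENCODE transcript lengths, a member's value rested on 548 fragments (LSM7) to 26580 (LSM3), a counting error of 0.613% to 4.27% that covers counting only. Markers of HEK293T cells were present in vehicle at 0 h, with VIM at 189 FPKM, KRT18 at 36.0, NEFL at 30.8, NEFM at 7.96, KRT8 at 2.76 and PAX2 at 1.85. Of 10 markers of haematopoietic, hepatic, fibroblast and endothelial cells, COL1A1 at 3.51 FPKM was the only one above 1 FPKM, and CD3E, HBB and CDH5 were listed at 0.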

How the data were processed

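Per the submitters' processing notes, the tools were Bowtie2 2.2.3, Trimmomatic 0.36 and CASAVA 1.8.2 and the build hg19; what program and annotation gave the FPKM values is not given in the sources used here. For each library the authors deposited FPKM per library in 1 table per time, and a comparison of CP25 with vehicle per time with a p-value, taken as unadjusted. Deposited FPKM values were taken to log2(FPKM + 1), and genes averaging 1 FPKM or more were fitted with limma 3.58.1 in R 4.3.3 (variance trend, Benjamini-Hochberg adjustment over all tested genes, threshold 0.05, two-sided), within each table and, for the difference of effects, in 1 fit of 12 libraries. The fits were also run on simulated data with independent noise in each library. The changes put in were larger than any estimate for a member, so that run does not cover effects of the members' size or offsets shared within a library.

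The 2 h level as a percentage of 0 h was described without a test. Depth was estimated from the FPKM that 1 fragment is worth in low genes whose length is known. GENCODE 29 gave lengths for 89.0% of tested genes, matched by symbol; promoter sequences are RefSeq's. All 9 members were named; from each list the highest and lowest percent left were named, with further genes added after their values were seen. XPC, BAG4 and SPPL2B were added as overlapping neighbours. Members and lists were chosen with earlier results of these data known. Of the 15 U6 and tri-snRNP genes, PRPF24 was not analysed here.

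Equal-numbered vehicle and CP25 libraries deviated together at 2 h (r = 0.35, 0.44 and 0.15 across genes, so the numbers pair them by a rule of all above 0.1, from the data and not the labels), and at 0 h with r = 0.26, -0.01 and 0.12, short of that rule. Vehicle replicate 3 also passed 0.1 with an unequal number, CP25 replicate 1 at 2 h (r = 0.117) and CP25 replicate 2 at 0 h (r = 0.124). For replicate 3 the rule thus hardly separates equal from unequal numbers. Alternatives were the pseudocount, the low-value filter, the scaling, the replicate block, the authors' p-values and leaving out each library.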

Additional observations from a re-analysis of the deposited data

How the results depend on the processing

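No alternative brought an LSM mRNA past the adjusted threshold: the smallest limma adjusted p of a member over all alternatives was 0.707 at 0 h, 0.733 at 2 h and 0.406 for the difference. With the replicate block, 0 members were called in each comparison and no count of called genes changed. LSM2 then had a limma unadjusted p of 0.0186 at 0 h (adjusted p = 0.707) and 0.0211 for the difference (adjusted p = 0.406). LSM4 had one of 0.0461 for the difference (adjusted p = 0.463). Of all 12365 genes at 0 h, 323 higher and 534 lower had an unadjusted p under 0.05 with the block, against 43 and 45 without it. For the difference these were 768 and 516 of 12183 genes, against 94 and 59 without the block.

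Leaving out 1 library gave 0 to 4 genes called at 0 h (4 without CP25 replicate 1), 1 to 6 at 2 h (6 without CP25 replicate 2) and 0 to 3 for the difference (3 without CP25 replicate 2 of 0 h). The authors' p-values, adjusted here, gave 0 at 2 h. The members' median left in vehicle ranged from 103.8% to 110.9%, the latter without replicate 3 of vehicle at 2 h. Dividing libraries by their median moved it to 137.9% in vehicle and 132.9% in CP25, by construction of that scaling. Orders of level kept their number of separated neighbours within 1.5 times.

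Signs of uncalled log2 estimates turned when 1 library was left out, in 8 of 117 values at 0 h, 8 of 117 at 2 h and 24 of 162 for the difference, over all alternatives; the cause was not tested. At 0 h LSM1 ranged from -0.0754 to 0.0285, LSM3 from -0.0653 to 0.0733, LSM4 from -0.0311 to 0.149, LSM7 from -0.0203 to 0.248 and LSM14A from -0.0777 to 0.0183. At 2 h LSM1 ranged from -0.0994 to 0.00215, LSM3 from -0.0316 to 0.110, LSM5 from -0.0495 to 0.119, LSM6 from -0.0186 to 0.104 and LSM14B from -0.0716 to 0.0209. For the difference LSM1 ranged from -0.0822 to 0.0309, LSM3 from -0.0173 to 0.125, LSM5 from -0.114 to 0.0547, LSM6 from -0.109 to 0.0441 and LSM7 from -0.120 to 0.148. LSM4 and LSM7 at 0 h turned without replicate 1 of vehicle, and LSM3, LSM5 and LSM6 at 2 h without replicate 3 of vehicle. Counting error of a member's value was at most 4.27%.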
